A study of Mus musculus with 12 samples.

Results

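The genes described here encode the subunits of the 5 complexes of mitochondrial oxidative phosphorylation. They were taken by symbol, as all those in either deposited table that begin with Nduf followed by a, b, c, s or v and a number, with Uqcr, with Cox4 to Cox8 or with Atp5, together with Sdha, Sdhb, Sdhc and Sdhd. This gave 85 of 19510 symbols, of which 37 belong by name to complex I, 4 to complex II, 8 to complex III, 19 to complex IV and 17 to complex V. All 85 were in the metaphysis table and 83 in the diaphysis table, where Cox7b2 and Cox8c were not listed. The rule works on names, and 4 members are not subunits of the complex whose name they carry: Cox4nb encodes a protein of an endoplasmic reticulum membrane complex, Cox7a2l a factor that joins respiratory complexes, Atp5s a coupling factor and Atp5sl an assembly protein. Ndufa4 is kept with complex I by name although its protein is now placed with cytochrome c oxidase. Subunit genes with other names, such as Cyc1 and Ndufab1, are left out of the counts and sums by complex.

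The RNA came from the femur of male mice, 5 weeks old and of mixed background, and the shaft (diaphysis) was sequenced apart from the flared end beside the growth plate (metaphysis). The groups were diaphysis cKO, diaphysis WT, metaphysis cKO and metaphysis WT, with 3 libraries each. Mice written Dlx3Oc-cKO in the labels (cKO here) carry a conditional deletion of Dlx3, a homeobox factor of bone-forming cells, and WT mice are Dlx3+/+. The Oc of the name is read here as osteocalcin-driven Cre, which is active in mature osteoblasts and osteocytes, so that marrow, cartilage and muscle cells in the same sample are not direct targets, and the labels do not say whether WT mice carried the Cre. The values are RPKM, mapped reads scaled to transcript length and library size, summed over the transcripts of a symbol, and levels of different genes can be compared because they are per length. Whether each library of a group is from its own animal is not in the labels, and the p-values below therefore reflect variation among the libraries at hand, which may be partly technical.

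Oxidative phosphorylation passes electrons from NADH through complex I, or from succinate through complex II, to complex III, cytochrome c and complex IV, which reduces oxygen. Complexes I, III and IV pump protons across the inner mitochondrial membrane, and complex V uses the gradient to make ATP. Apart from complex II, each complex combines subunits encoded in the nucleus with a few encoded in mitochondrial DNA, and only the nuclear genes are among the members here. Several cytochrome c oxidase subunits have a form found in most tissues and another that is restricted to heart and skeletal muscle, testis or lung. In bone, osteoclasts are rich in mitochondria, while osteoblasts also draw strongly on glycolysis.

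Dlx3 was at 0.763, 1.55 and 1.17 RPKM in diaphysis cKO libraries, against 3.22, 7.64 and 13.1 RPKM in diaphysis WT libraries. In the metaphysis it was at 1.98, 2.80 and 3.24 RPKM in cKO libraries, against 8.37, 8.90 and 10.1 RPKM in WT libraries. All cKO values lay below all WT values in both regions (exact 2-sided permutation test, p = 0.10 in each, the smallest that 3 against 3 allows). In limma the adjusted p of Dlx3 was 0.00907 in the metaphysis, and it did not pass in the diaphysis (adjusted p = 1.00). The RPKM cover the whole transcript, and the deleted part is not named in the labels. Diaphysis libraries held an estimated 18.45 to 54.15 M reads, judged from the steps between low values, and metaphysis libraries 24.6 to 34.9 M reads. Globin made up 15.1% to 32.6% of all RPKM in a diaphysis library and 13.5% to 22.1% in a metaphysis library. Osteoblast markers, which define the labelled tissue, were present in every library but uneven in the diaphysis, where their summed level was 10969, 15771 and 13562 RPKM in cKO libraries and 4577, 18911 and 27003 RPKM in WT libraries. Diaphysis WT replicate 1 stood apart, being also lowest of its region in summed osteoclast (626 RPKM) and chondrocyte markers (43.2 RPKM) and highest in globin (32.6%). The members' median fold change in the diaphysis and its difference between regions are therefore also given without that library. Levels, shares, ratios and the comparison of levels between regions keep it. In bulk tissue, fewer cells of a type and less RNA per cell cannot be told apart.

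The balance between the complexes was nearly the same in every library, while the summed level of their genes varied. All members together held 1.75% ± 0.244 of the summed RPKM in diaphysis cKO libraries and 1.54% ± 0.132 in diaphysis WT libraries (SD, n = 3 each). In the metaphysis they held 1.94% ± 0.187 in cKO libraries and 2.03% ± 0.134 in WT libraries (SD, n = 3 each). The cKO and WT ranges overlapped in both regions, with 1.54% to 2.02% in cKO and 1.45% to 1.69% in WT libraries of the diaphysis, and 1.82% to 2.15% in cKO and 1.92% to 2.18% in WT libraries of the metaphysis. The summed RPKM of the members ran from 5568 in diaphysis WT replicate 3 to 9539 in metaphysis WT replicate 2, a 1.71-fold range over the 12 libraries. Over the same libraries complex I took 28.1% to 30.7% of that sum, complex II 3.78% to 4.22%, complex III 9.77% to 11.7%, complex IV 22.4% to 24.9% and complex V 31.2% to 32.9%. Within these ranges the complex IV share was 24.1% to 24.6% in metaphysis cKO and 22.8% to 24.0% in metaphysis WT libraries, without overlap. The gap was narrow, with 24.09% in cKO replicate 2 against 24.01% in WT replicate 1. It also depends on counting Ndufa4 with complex I by name, and with Ndufa4 added to complex IV the ranges overlap. Every other share overlapped between the genotypes of a region. The complex III share was 10.53% to 11.7% in metaphysis and 9.77% to 10.46% in diaphysis libraries, also without overlap. The genes also kept their rank. Across the 82 members compared, the Spearman correlation between the group means of cKO and WT was 0.991 in the diaphysis and 0.979 in the metaphysis, and between diaphysis WT and metaphysis WT it was 0.937. These are correlations across genes, which are not independent replicates, and they share library and transcript length.

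**Figure D1:**
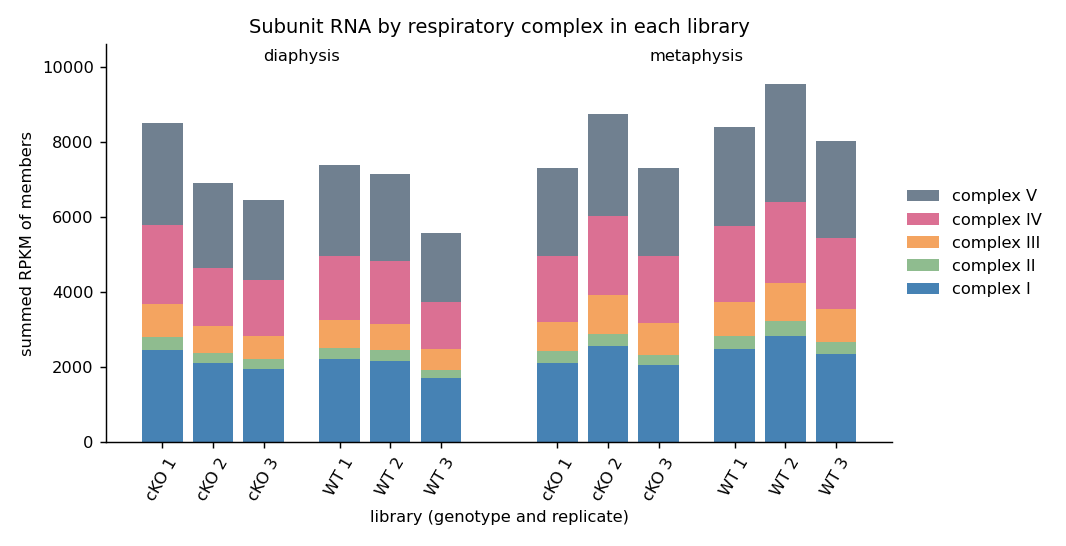
Summed RPKM of the member genes in each of the 12 libraries, stacked by complex; cKO libraries stand left of WT libraries in each region. The height ran from 5568 to 9539 RPKM, while complex V kept 31.2% to 32.9% and complex I 28.1% to 30.7% of each bar.

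In the metaphysis no member rose and none fell in cKO at the adjusted threshold of 0.05 (limma on log2(RPKM + 0.1), 83 members past the minimum of 1 RPKM in 3 of 6 libraries). Over all 12641 genes tested, 949 (7.51%) were called higher and 492 (3.89%) lower in cKO. At an unadjusted p under 0.05 there were 13 members (15.7%), against 30.6% of all genes. That comparison rests on single libraries: the count was 30 members (36.1%, against 27.8% of all genes) without metaphysis cKO replicate 2, and with any other library left out it ran from 2 (2.41%, against 24.2%, without cKO replicate 3) to 15 (18.1%, against 25.6%, without WT replicate 3). The values leaned to lower: 68 of the 83 members (81.9%) had a log2 fold change below 0, against 54.9% of all genes, and 15 were above 0, against 45.1% of all genes. The median was −0.15 for the members and −0.04 for all genes. The 3 cKO libraries lay below all 3 WT libraries in 17 members (20.5%, against 18.4% of all genes) and above them in 2 members (2.41%, against 18.7%). The share lying wholly below was thus near that of the background, and the share lying wholly above was under it. The 17 members, named after their values were seen, were Atp5a1, Atp5b, Atp5g3, Atp5h, Atp5s, Cox6b2, Ndufa1, Ndufa4, Ndufa9, Ndufb3, Ndufb7, Ndufb8, Ndufb9, Ndufs1, Ndufv1, Sdha and Uqcrfs1, and the other 2 were Cox4i2 and Cox8a.

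Markers of several other cell types moved with genotype in the same metaphysis libraries. The 13 erythroid markers, summed within a library, were at 572 to 1049 RPKM in cKO and 1363 to 1680 RPKM in WT libraries. All 13 lay lower in every cKO library, and 6 of them fell (limma, adjusted p under 0.05). The 11 B lymphoid markers were at 295 to 351 RPKM in cKO and 450 to 557 RPKM in WT libraries, and 7 of them fell. Of the 14 proliferation genes 4 fell, while 7 of 11 osteoblast, 8 of 10 osteoclast and 6 of 9 chondrocyte markers rose. Summed neutrophil markers overlapped between genotypes, at 8446 to 11637 RPKM in cKO and 8665 to 14333 RPKM in WT libraries. Of the 11 neutrophil markers 1 rose and none fell, while 10 had a log2 fold change below 0 (median −0.19). Mmp9 was in both the neutrophil and the osteoclast list. The 24 skeletal muscle markers were at 3669 to 13968 RPKM in cKO and 8168 to 12849 RPKM in WT libraries. All 24 had a log2 fold change below 0 (median −0.65), but only Myh1, a fast myosin heavy chain, fell. No gene of these lists was at 0 in any library. The part of the blood, bone and cartilage cell types in the members' values was not tested. With a muscle marker score of each library as a covariate, a setting added after the data were seen, the members' median in the metaphysis was −0.03 and 53 of 83 members were below 0. Centred on its mean, that score was −0.65, 0.69 and −1.07 in cKO and 0.18, 1.22 and −0.36 in WT libraries. It thus leaned lower in cKO, and muscle content and genotype cannot be told apart in that fit. Without the score, the members' median stayed below 0 when any single library was left out (−0.25 to −0.09) and under both other scalings (−0.14 with globin left out, −0.13 with median scaling).

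Complex I, which takes electrons from NADH, had 32 of its 37 tested members below 0 in metaphysis cKO, with a median log2 fold change of −0.15. Ndufb3, an accessory subunit of the membrane arm (chromosome 1, 58643228 to 58652808, mm9), was the lowest of them. Ndufb3 was at 57.7, 52.6 and 41.9 RPKM in metaphysis cKO libraries, against 65.9, 89.0 and 64.4 RPKM in WT libraries. All 3 cKO values lay below the WT values, and the log2 fold change was −0.52 ± 0.17 (SE), which did not pass (limma, adjusted p = 0.0828). The core subunits Ndufs1, Ndufv1 and Ndufs7 also had values below 0. Ndufs1, which carries iron-sulfur clusters, was at 34.6, 36.2 and 33.5 RPKM in metaphysis cKO libraries and 39.6, 54.2 and 41.9 RPKM in WT libraries (log2 −0.36 ± 0.13, adjusted p = 0.104), and its cKO libraries were all lower. Ndufv1, which binds NADH, was at 56.3, 55.5 and 50.1 RPKM in metaphysis cKO libraries and 62.8, 77.9 and 59.5 RPKM in WT libraries (log2 −0.30 ± 0.12, adjusted p = 0.144), again without overlap. Ndufs7, a core subunit on the path to ubiquinone, was at 53.8, 67.9 and 51.1 RPKM in metaphysis cKO libraries and 61.8, 68.1 and 56.3 RPKM in WT libraries, so its groups overlapped.

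The level within complex I spanned a wide range. Ndufa4 was the most abundant, at 171, 211 and 182 RPKM in metaphysis cKO libraries and 213, 245 and 213 RPKM in WT libraries, all cKO values lower (log2 −0.25 ± 0.11, limma adjusted p = 0.175). Its paralog Ndufa4l2, known to be induced by low oxygen, was far lower, at 5.87, 17.2 and 12.3 RPKM in metaphysis cKO libraries and 9.66, 12.8 and 5.86 RPKM in WT libraries. The Ndufa4l2 groups overlapped, and the highest value was that of cKO replicate 2. Ndufa12, another accessory subunit, was at 32.4, 56.7 and 46.5 RPKM in metaphysis cKO libraries and 43.2, 56.3 and 43.8 RPKM in WT libraries, also with overlap. Ndufs5, an accessory subunit on the outer face of the membrane, stood apart: it was at 7.04, 0.863 and 1.72 RPKM in metaphysis cKO libraries and 0.434, 0.468 and 2.35 RPKM in WT libraries, where every other member of the complex averaged at least 9.44 RPKM. Its log2 fold change of 1.36 ± 0.84 (limma adjusted p = 0.319) ran from 0.55 to 2.08 when a library was left out, and the highest value was that of cKO replicate 1. Processed copies of subunit genes are common in the mouse genome, and how reads shared with such copies were counted is not given in the sources used here.

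Complex II, succinate dehydrogenase, is also an enzyme of the citric acid cycle, and all 4 of its genes were below 0 in metaphysis cKO, with a median log2 fold change of −0.21 and no call. Sdha, the flavoprotein that oxidises succinate, was at 74.1, 79.4 and 68.4 RPKM in metaphysis cKO libraries and 81.7, 106 and 82.6 RPKM in WT libraries, without overlap (log2 −0.28 ± 0.13, limma adjusted p = 0.185). Sdhb, the iron-sulfur subunit, was at 55.2, 71.5 and 60.2 RPKM in metaphysis cKO libraries and 66.0, 80.0 and 61.7 RPKM in WT libraries. Sdhc, a membrane anchor, was at 90.9, 94.7 and 75.5 RPKM in metaphysis cKO libraries and 107, 118 and 93.8 RPKM in WT libraries. The highest cKO library of Sdhc just overlapped the lowest WT library, and its log2 fold change was −0.29 ± 0.13 (adjusted p = 0.172).

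Complex III passes electrons from ubiquinol to cytochrome c, and its 8 genes were split, with 5 below and 3 above 0 in metaphysis cKO. Uqcrfs1, the Rieske iron-sulfur protein, was at 72.8, 73.6 and 61.2 RPKM in metaphysis cKO libraries and 85.7, 107 and 80.1 RPKM in WT libraries. All its cKO values were lower (log2 −0.39 ± 0.13, limma adjusted p = 0.10). The small subunit Uqcr10 leaned the other way, with 75.6, 125 and 95.2 RPKM in metaphysis cKO libraries and 85.2, 84.0 and 83.7 RPKM in WT libraries. The WT libraries of Uqcr10 lay close together while the cKO libraries fell on both sides of them (log2 0.20 ± 0.17). Uqcr11, another small subunit, was at 57.8, 90.9 and 76.4 RPKM in metaphysis cKO libraries and 70.3, 61.7 and 65.2 RPKM in WT libraries. Uqcrh, the hinge protein that docks cytochrome c, was the most abundant of the complex, at 208, 249 and 204 RPKM in metaphysis cKO libraries and 244, 269 and 219 RPKM in WT libraries. Both Uqcr11 and Uqcrh overlapped between genotypes.

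Complex V, ATP synthase, had 16 of 17 members below 0 in metaphysis cKO, with a median log2 fold change of −0.12. The catalytic subunit Atp5b was the most abundant member of all, at 362, 392 and 359 RPKM in metaphysis cKO libraries and 411, 510 and 410 RPKM in WT libraries. Its cKO values were all lower, at 83.5% of the WT mean (log2 −0.25 ± 0.11, limma adjusted p = 0.184). Atp5k, the small membrane subunit e, had the lowest log2 fold change of the complex, −0.49 ± 0.19 (adjusted p = 0.127). Atp5k was at 55.4, 73.0 and 52.2 RPKM in metaphysis cKO libraries and 68.6, 105 and 81.5 RPKM in WT libraries, and cKO replicate 2 overlapped the WT range. The coupling factor gene Atp5s was the lowest in level, at 2.36, 2.49 and 2.47 RPKM in metaphysis cKO libraries and 2.68, 3.33 and 2.79 RPKM in WT libraries.

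The c subunit that forms the rotor ring is made from 3 genes with different presequences, and these did not lean the same way. Atp5g3 was at 268, 280 and 224 RPKM in metaphysis cKO libraries and 307, 352 and 291 RPKM in WT libraries, all cKO values lower (log2 −0.30 ± 0.12, limma adjusted p = 0.147). Atp5g2 was at 139, 184 and 173 RPKM in metaphysis cKO libraries and 145, 149 and 153 RPKM in WT libraries, with overlap (log2 0.14 ± 0.12). Atp5g1 was at 84.9, 108 and 88.4 RPKM in metaphysis cKO libraries and 100 to 137 RPKM in WT libraries (log2 −0.25 ± 0.15). Together the 3 genes were at 517 ± 48.5 RPKM in metaphysis cKO and 579 ± 52.0 RPKM in metaphysis WT libraries (SD, n = 3 each). Atp5g1 lies 0.944 Mb from Dlx3 on chromosome 11 (mm9), the nearest of the 4 members on that chromosome. The members with a gene model were spread over 19 chromosomes.

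**Figure D2:**
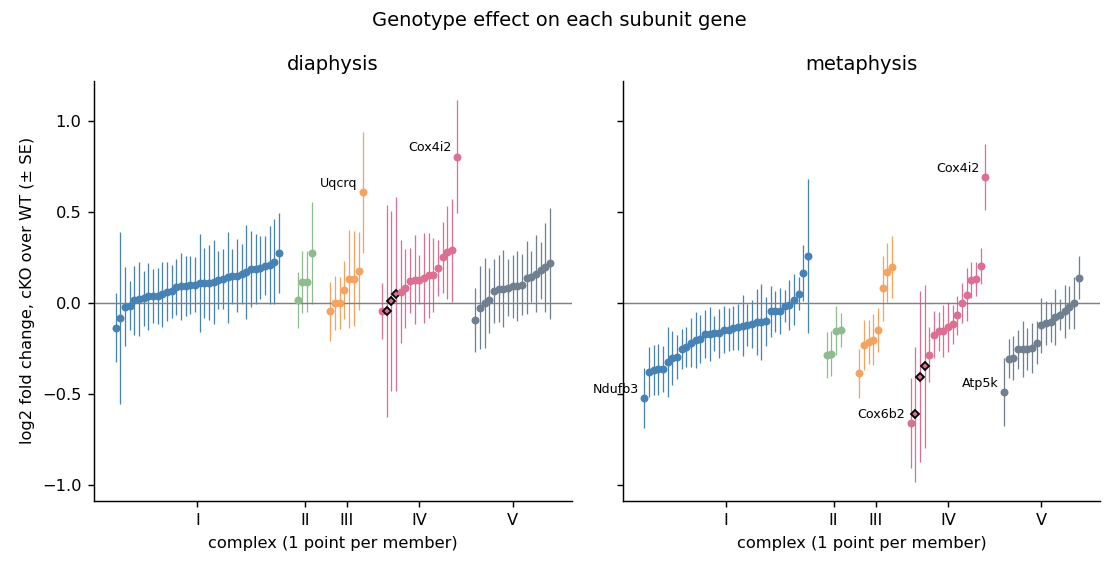
Log2 fold change of cKO over WT with its standard error for each member past the minimum, sorted within its complex; diamonds with a black edge are Cox6a2, Cox7a1 and Cox8b, and Ndufs5 is left out. In the diaphysis 71 of 82 members lay above 0 and in the metaphysis 68 of 83 lay below 0, and none passed the adjusted threshold in either region.

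Complex IV, cytochrome c oxidase, was also split, with 11 of its 17 tested members below 0 and 6 above 0 in metaphysis cKO. Its most abundant gene, Cox4i1, which most tissues use, was at 340, 373 and 334 RPKM in metaphysis cKO libraries and 369, 424 and 344 RPKM in WT libraries, with overlap. Cox4i2, the alternative form best known from lung (chromosome 2, 152579909 to 152590773, mm9), was at 5.94, 9.30 and 7.75 RPKM in metaphysis cKO libraries and 4.92, 5.11 and 3.95 RPKM in WT libraries. All 3 cKO values were higher, and Cox4i2 came closest of all members to the threshold without passing it (log2 0.69 ± 0.18, limma adjusted p = 0.0524). It passed in limma with a minimum of 5 RPKM (adjusted p = 0.0450), with globin left out (0.0461), with the muscle score (0.0313) and without metaphysis cKO replicate 1 (0.0311), and over all alternatives its adjusted p ran from 0.0311 to 0.267. Even so Cox4i2 remained a minor form beside the level of Cox4i1. Cox5a, whose product binds the matrix side of the complex, was the only other member to pass when a single library was left out, namely metaphysis cKO replicate 2, and with all libraries it was at 102, 143 and 98.0 RPKM in cKO and 140, 142 and 131 RPKM in WT libraries.

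Cox6b2, a form described in testis (chromosome 7, 4703396 to 4704696, mm9), was at 13.4, 9.22 and 19.8 RPKM in metaphysis cKO libraries and 22.3, 21.0 and 20.7 RPKM in WT libraries. Its cKO values were all lower and more scattered than those of WT (log2 −0.66 ± 0.25, limma adjusted p = 0.122), and it passed with the muscle score (−0.88, adjusted p = 0.0437). Its partner Cox6b1, the form of most tissues, was at 124, 160 and 147 RPKM in metaphysis cKO libraries and 149, 190 and 143 RPKM in WT libraries, with overlap. The last 2 restricted forms, Cox7b2 and Cox8c, which are known from testis, were below the minimum: Cox7b2 was at 0.149 RPKM in metaphysis cKO replicate 1 and listed at 0 in the other 5 libraries, and Cox8c reached at most 0.153 RPKM. The partner Cox7b was at 35.1, 47.0 and 44.7 RPKM in metaphysis cKO libraries and 39.6, 47.1 and 36.0 RPKM in WT libraries, with overlap.

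**Figure D3:**
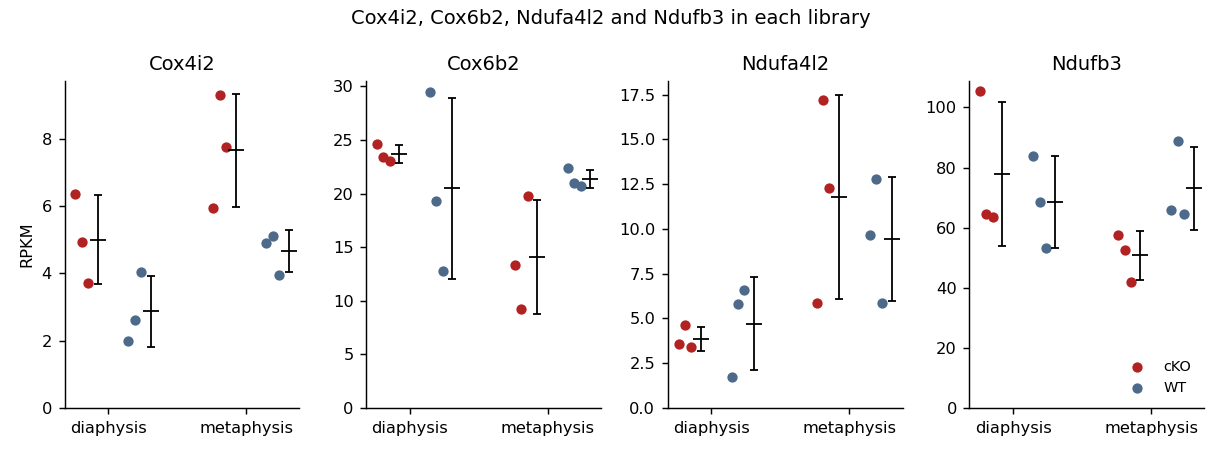
RPKM of Cox4i2, Cox6b2, Ndufa4l2 and Ndufb3 in each library, with cKO left of WT in each region; the black bars give mean and SD of 3 libraries. In the metaphysis Cox4i2 lay higher and Cox6b2 and Ndufb3 lower in every cKO library, while Ndufa4l2 overlapped.

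The complex IV genes Cox6a2, Cox7a1 and Cox8b encode the forms of heart and skeletal muscle, and their partners in most other tissues are Cox6a1, Cox7a2 and Cox8a. Cox7a1 and Cox8b are also known from brown fat. The promoter windows of Cox8b, Cox8a and Cox6a1 (RefSeq, GRCm38.p6, from 250 bases before to 50 bases after the gene start, read on the gene's strand) are shown because they hold the E-box, ETS and NRF1 motifs, 1 kind in each gene. Cox8b is at chr7:140900397-140900696 on the minus strand, Cox8a at chr19:7217567-7217866 on the minus strand and Cox6a1 at chr5:115348909-115349208 on the minus strand. Capitals mark the E-box CAGCTG in Cox8b, the ETS motif ACTTCCGG in Cox8a and the NRF1 motif GCGCATGCG, which overlaps its own match on the other strand, in Cox6a1.
Cox8b: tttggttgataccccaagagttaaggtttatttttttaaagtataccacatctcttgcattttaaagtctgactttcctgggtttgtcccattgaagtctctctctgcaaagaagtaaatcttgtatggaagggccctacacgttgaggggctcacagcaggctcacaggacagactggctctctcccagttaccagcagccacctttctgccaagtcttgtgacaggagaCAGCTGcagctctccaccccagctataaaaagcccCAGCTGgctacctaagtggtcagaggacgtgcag
Cox8a: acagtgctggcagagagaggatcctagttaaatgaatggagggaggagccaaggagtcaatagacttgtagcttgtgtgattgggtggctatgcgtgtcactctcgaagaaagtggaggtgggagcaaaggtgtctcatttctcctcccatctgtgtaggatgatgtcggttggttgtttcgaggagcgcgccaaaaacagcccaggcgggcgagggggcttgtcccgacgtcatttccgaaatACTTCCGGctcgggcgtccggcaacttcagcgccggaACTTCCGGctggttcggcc
Cox6a1: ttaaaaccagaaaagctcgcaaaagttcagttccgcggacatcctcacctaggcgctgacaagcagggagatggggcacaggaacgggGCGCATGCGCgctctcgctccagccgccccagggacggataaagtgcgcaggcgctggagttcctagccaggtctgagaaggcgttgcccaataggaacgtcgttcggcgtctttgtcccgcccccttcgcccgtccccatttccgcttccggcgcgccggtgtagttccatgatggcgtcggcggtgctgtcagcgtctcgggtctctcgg

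The window of Cox8b held 2 E-boxes, a motif read by myogenic factors among others, and that of Cox8a held 2 ETS motifs. The windows of Cox7a1 and Cox7a2 held none of the 5 motifs searched. Across the 75 windows found for 69 of the 85 members, GCGCATGCG was in 8 (10.7%, against 1.75% of all 32851 windows) and the YY1 motif AAGATGGCG in 9 (12%, against 1.40%). The ETS motif ACTTCCGG was in 5 (6.67%, against 3.89%), the ERR motif TCAAGGTCA in 2 (2.67%, against 0.423%) and CAGCTG in 6 (8.0%, against 16.3%), with both strands read. A match is a description of the letters and not a site that was shown to be bound.

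The muscle-type genes varied far more between libraries than their partners, and they did so within each genotype. Cox6a2 (chromosome 7, 135348950 to 135349880, mm9) was at 20.4, 81.5 and 34.4 RPKM in metaphysis cKO libraries and 45.0, 70.4 and 42.0 RPKM in WT libraries. Cox7a1 (chromosome 7, 30969190 to 30971047) was at 35.9, 63.9 and 27.5 RPKM in metaphysis cKO libraries and 65.9, 86.9 and 39.4 RPKM in WT libraries. Cox8b (chromosome 7, 148084842 to 148086345) was at 20.6, 66.5 and 25.3 RPKM in metaphysis cKO libraries and 42.1, 58.1 and 29.2 RPKM in WT libraries. The groups overlapped in all 3 genes, and their log2 fold changes of −0.40 ± 0.47, −0.61 ± 0.37 and −0.35 ± 0.45 were not distinguishable from 0 (limma, smallest adjusted p = 0.306). With the muscle score as covariate Cox6a2 and Cox8b were at 0.09 and 0.19, while Cox7a1 did not turn sign. The partners were steady: Cox6a1 was at 259, 200 and 231 RPKM in metaphysis cKO and 224, 227 and 236 RPKM in WT libraries. Cox7a2 was at 48.9, 60.5 and 53.8 RPKM in metaphysis cKO and 47.8, 51.3 and 49.8 RPKM in WT libraries, with overlap. Cox8a was at 172, 168 and 183 RPKM in metaphysis cKO and 163, 136 and 157 RPKM in WT libraries, all cKO values higher (log2 0.20 ± 0.10, adjusted p = 0.219).

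The same held in the diaphysis, where Cox6a2 was at 44.4, 26.0 and 12.3 RPKM in cKO libraries and 25.5, 37.2 and 14.7 RPKM in WT libraries. Cox7a1 was at 62.1, 28.5 and 14.0 RPKM in diaphysis cKO libraries and 27.3, 43.9 and 18.7 RPKM in WT libraries. Cox8b was at 26.6, 13.1 and 5.47 RPKM in diaphysis cKO libraries and 15.1, 19.3 and 7.22 RPKM in WT libraries. In each of the 3 genes diaphysis cKO replicate 1 was highest and cKO replicate 3 lowest, with the WT libraries between them. Skeletal actin, Acta1, a marker of muscle fibres, was at 1955, 1029 and 465 RPKM in diaphysis cKO libraries and 931, 1262 and 544 RPKM in WT libraries. Cox6a2 and Cox7a1 ranked the 6 diaphysis libraries in the same order as Acta1. In the metaphysis Acta1 was at 802, 2486 and 647 RPKM in cKO libraries and 1368, 2262 and 1390 RPKM in WT libraries, and cKO replicate 2 followed by WT replicate 2 were highest for Acta1, Cox6a2 and Cox8b, while Cox7a1 was highest in WT replicate 2.

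As a ratio within a library, Cox6a2 to Cox6a1 ran from 0.0521 to 0.407 over the 12 libraries, Cox7a1 to Cox7a2 from 0.383 to 1.69 and Cox8b to Cox8a from 0.0475 to 0.428. The sum of the 3 muscle-type genes made up 2.12% to 10.1% of complex IV RPKM, a 4.74-fold range. Divided by Acta1 of the same library, that sum kept to 0.0657 to 0.135, a 2.05-fold range, where Acta1 itself ranged 5.34-fold and the sum 6.76-fold. In the diaphysis the quotient was 0.0674 ± 0.00151 in cKO and 0.0757 ± 0.00351 in WT libraries (SD, n = 3 each), and in the metaphysis 0.105 ± 0.0261 in cKO and 0.0956 ± 0.0161 in WT libraries (SD, n = 3 each). The diaphysis quotients did not overlap between genotypes, at 0.0657 to 0.0685 in cKO and 0.0728 to 0.0796 in WT libraries. Those of the metaphysis did overlap. Brown fat markers were low: Ucp1, the uncoupling protein, was at 0.0653, 2.45 and 0.0112 RPKM in diaphysis cKO libraries and 0.138, 0.0720 and 0.0194 RPKM in WT libraries. In the metaphysis Ucp1 was at 5.06, 1.45 and 3.60 RPKM in cKO libraries and 0.313, 4.62 and 0.420 RPKM in WT libraries. The 6 brown fat markers summed to 11.8, 9.55 and 9.60 RPKM in metaphysis cKO and 5.77, 18.0 and 3.32 RPKM in WT libraries. The part of brown fat in the levels of Cox7a1 and Cox8b was not tested.

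**Figure D4:**
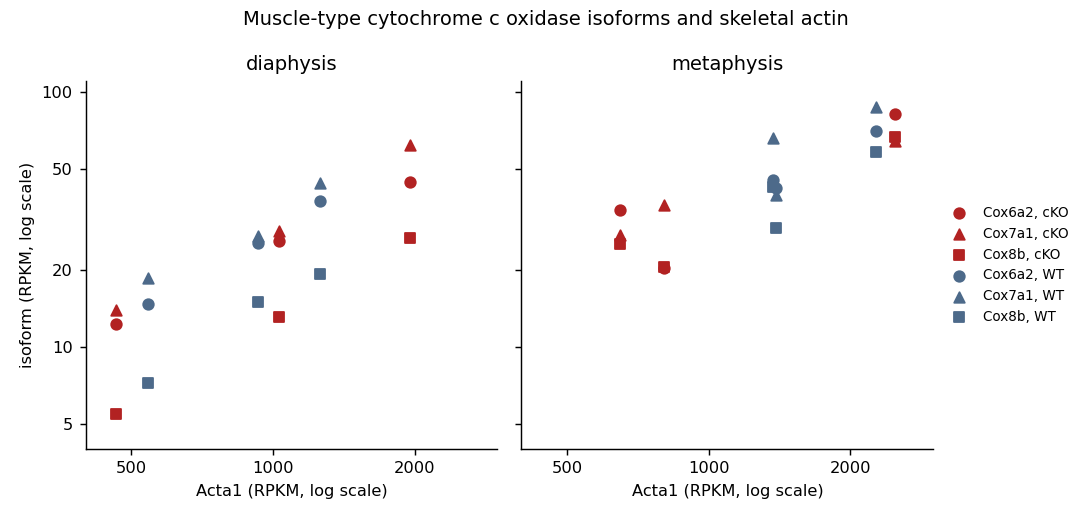
Cox6a2, Cox7a1 and Cox8b against Acta1 in each library, both in RPKM on log scales, with cKO in red and WT in blue. In the diaphysis the isoforms rank the libraries as Acta1 does but for a swap of Cox8b with its neighbour, and cKO libraries lie at both ends of the Acta1 range in each region.

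In the diaphysis no member rose or fell, nor did any of the 12540 genes tested (limma, 0.0% called in each direction, lowest adjusted p 1.00). Without adjustment 1 of 82 members had a p under 0.05, against 86 genes (0.686%). The lean was to higher: 71 of 82 members (86.6%, against 50.7% of all genes) had a log2 fold change above 0 and 11 below 0 (49.3% of all genes), and the median was 0.11 against 0.00 for all genes. Only 2 members, Cox4nb and Cox7a2l, lay higher in all 3 cKO libraries (2.44%, against 2.24% of all genes). Neither encodes a subunit of the complex whose name it carries. None of the members lay lower in all 3 (0.789% of all genes). The lean rested on single libraries. Without diaphysis cKO replicate 1 the members' median was −0.0014, against 0.086 for all genes. Without diaphysis WT replicate 3 it was −0.0067, against −0.014 for all genes. Those libraries were the highest and the lowest in summed member RPKM of the diaphysis, at 8488 and 5568 RPKM. Without diaphysis WT replicate 1 the median was 0.17, with 7 of 82 members below 0 and 2 at an unadjusted p under 0.05. Summed muscle markers were at 9966, 5379 and 2718 RPKM in diaphysis cKO libraries and 5509, 6848 and 2932 RPKM in WT libraries, so they were highest in cKO replicate 1 and lowest in cKO replicate 3. With the muscle score as covariate the median was 0.09 and 13 of 82 members were below 0, close to the values without it. Osteoblast markers were at 10969 RPKM in cKO replicate 1 and 27003 RPKM in WT replicate 3. In these 2 libraries the members had the reverse order, but this did not hold throughout. WT replicate 2 was above cKO replicate 3 both in osteoblast markers (18911 against 13562 RPKM) and in members (7128 against 6439 RPKM). The part of osteoblast markers in the lean was not tested.

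Among single diaphysis genes, Cox4i2 was the member at an unadjusted p under 0.05. It was at 6.35, 4.93 and 3.72 RPKM in cKO libraries and 1.98, 2.61 and 4.04 RPKM in WT libraries, with cKO replicate 3 below WT replicate 3 (log2 0.80 ± 0.31, limma adjusted p = 1.00). Uqcrq, a small subunit of complex III, had the next largest value, at 136, 75.8 and 70.3 RPKM in diaphysis cKO libraries and 56.9, 85.3 and 42.1 RPKM in WT libraries (log2 0.61 ± 0.33), with overlap. In the other complexes the largest positive values were those of Ndufs7 (0.27 ± 0.22), Sdhc (0.28 ± 0.28) and Atp5g3 (0.22 ± 0.30). Both Sdhc, with 97.1 RPKM against 53.4 and 53.0 RPKM in the other cKO libraries, and Atp5g3, with 336 RPKM against 176 and 168 RPKM, were high in diaphysis cKO replicate 1 alone. The lowest values were those of Ndufa12 (−0.14 ± 0.19), Uqcrb (−0.05 ± 0.16), Cox7b (−0.05 ± 0.15) and Atp5k (−0.09 ± 0.18), a narrow range beside their errors. Ndufs5 did not reach the minimum, with 5.82 RPKM in diaphysis cKO replicate 2 and at most 0.550 RPKM in the other 5 libraries.

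The genotype effect was set against itself in a fit of all 12 libraries, as the log2 fold change in the diaphysis minus that in the metaphysis. No member differed between regions, nor did any of the 12859 genes tested (limma, 0.0% called, smallest adjusted p 0.907, 523 genes or 4.07% at an unadjusted p under 0.05). The members' median difference was 0.26 against 0.03 for all genes, and 74 of 83 were above 0, which follows from the opposite leans of the 2 regions. Cox6b2 was the member at an unadjusted p under 0.05. It was at 24.6, 23.4 and 23.0 RPKM in diaphysis cKO and 29.5, 19.3 and 12.7 RPKM in diaphysis WT libraries, where the groups overlapped, and its difference of 0.95 (unadjusted p = 0.0410) had an adjusted p of 0.907. Ndufb3 had the next largest positive difference, 0.69, from 106, 64.6 and 63.7 RPKM in diaphysis cKO and 83.9, 68.5 and 53.2 RPKM in diaphysis WT libraries. For Cox4i2 the effects had the same sign in both regions and a difference of 0.11. Without diaphysis WT replicate 1 the members' median difference was 0.35 and 123 genes passed, none of them members. A p that misses the threshold does not show that the regions respond alike.

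The 2 tables were made separately, and their headers carry different data codes, so levels across regions are given side by side and the region cannot be told apart from the table. In WT libraries the mean of a member in the diaphysis was at a median of 0.797 times its mean in the metaphysis, over 82 members, against 1.01 over all 12321 genes past the minimum in both regions. In WT, 39 members (47.6%, against 11.5% of all genes) lay lower in all 3 diaphysis libraries and 0 lay higher (12.1% of all genes). In cKO libraries the median ratio was 0.944 for the members and 1.02 for all genes, with 11 members lower (13.4%, against 18.7%) and 9 higher (11%, against 17.8%) in all 3 diaphysis libraries. Lower in every diaphysis library of both genotypes were 10 members (12.2%, against 5.14% of all genes): Atp5g2, Atp5l, Cox5a, Cox7a2l, Cox8a, Ndufa4, Ndufb4, Ndufs3, Sdhd and Uqcr10. For example, Uqcr10 was at 47.5, 47.5 and 45.6 RPKM in diaphysis cKO libraries and 51.5, 47.8 and 42.0 RPKM in diaphysis WT libraries, that is 0.475 and 0.558 times the metaphysis means of the same genotypes. Cox5a was at 0.606 times its metaphysis mean in cKO and 0.479 times in WT libraries. Cox8b had the lowest ratio in WT, 0.321, with Cox6a2 at 0.492 and Cox7a1 at 0.468, beside Acta1 means of 912 RPKM in diaphysis WT and 1674 RPKM in metaphysis WT libraries.

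Genes that belong to the complexes or work with them, but fall outside the name rule, were listed apart. Of 4 further subunits, electron carriers and partners (Cyc1, Cycs, Ndufab1, Atpif1), 1 fell in metaphysis cKO. This was Atpif1, the inhibitor that stops ATP synthase from running backwards, at 156, 132 and 175 RPKM in metaphysis cKO libraries and 199, 224 and 226 RPKM in WT libraries. The Atpif1 groups did not overlap (log2 −0.49 ± 0.12, limma adjusted p = 0.0456), and in the diaphysis it was at 206, 188 and 246 RPKM in cKO and 307, 178 and 150 RPKM in WT libraries, with overlap. Summed erythroid markers were also lower in all 3 of these cKO libraries, and their part in the Atpif1 value was not tested. Of 29 assembly factors none passed in the metaphysis, with a median log2 fold change of −0.11. The nearest were Cox17, a copper chaperone of complex IV (−0.48 ± 0.13, adjusted p = 0.0602), and Sco2, another copper-handling factor (1.19 ± 0.33, adjusted p = 0.0604).

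Regulators of mitochondrial gene expression did not pass either, in 0 of 12 tested. Tfam, which packages mitochondrial DNA, was at 7.88, 7.45 and 7.54 RPKM in metaphysis cKO libraries and 9.05, 9.42 and 9.59 RPKM in WT libraries, a small gap without overlap (log2 −0.29 ± 0.08, limma adjusted p = 0.0650). Nrf1, the factor of the GCGCATGCG motif, was at 11.4, 8.57 and 11.1 RPKM in metaphysis cKO libraries and 12.4, 11.9 and 12.8 RPKM in WT libraries (adjusted p = 0.201). Ppargc1a, a coactivator of mitochondrial genes, was below the minimum, at 0.276 to 1.17 RPKM in metaphysis cKO and 0.557 to 1.27 RPKM in WT libraries. None of 17 citric acid cycle genes passed (median −0.23), and of 18 glycolytic genes 1 rose, Aldoc, an aldolase (0.84, adjusted p = 0.0344), with a median of −0.21. Of 76 mitochondrial ribosome proteins 2 fell (median −0.12), and of 72 cytosolic ones none passed (median −0.02). In the diaphysis no gene of these lists passed, with medians of 0.11 for the assembly factors, 0.03 for the regulators and the citric acid cycle and 0.06 for the mitochondrial ribosome.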

How the data were processed

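RNA for 12 libraries was extracted with Trizol and made into sequencing libraries with an Illumina TruSeq RNA kit, per the labels' protocols, and no use of strand is stated. The authors deposited 1 table per region with an RPKM value per RefSeq transcript and library, per the file headers. Partek 6.6, TopHat 1.3.2, CASAVA 1.8.2, Bowtie 0.12.7.0 and the build mm9 appear in the submitters' processing notes, without a role or an order for any of them. The low RPKM values were whole multiples of a read (within 0.1) in 69.5% to 73.9% of cases, too few to recover counts.

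Values of all transcripts of a symbol were added, and symbols with 1 RPKM in 3 of 6 libraries were kept. Each region was fitted on log2(RPKM + 0.1), which understates changes of low genes, by limma-trend (limma 3.58.1 under R 4.3.3), 2-sided, with Benjamini-Hochberg adjustment over all genes and a threshold of 0.05. The regions' difference was a contrast over all 12 libraries. The fits were tested on simulated data. Gene positions are GENCODE models of mm9, found for 84 of 85 members. Preparation used Python 3.11.15, pandas 2.3.3, numpy 2.4.6, scipy 1.17.1 and matplotlib 3.10.9.

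Members and lists were chosen with earlier results of these data known. Named members were those called, the highest and lowest in level and in fold change within a complex and region, and the tissue-restricted forms with their partners. Alternatives covered pseudocount, filter, globin, scaling, transcript choice, trend, fit and each left-out library, and a muscle score and the members' median were added after the data were seen.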

Additional observations from a re-analysis of the deposited data

How the results depend on the processing

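No paired analysis was possible because replicates were numbered by accession order, which pairs no libraries. Over all genes, the metaphysis calls numbered 8 when all 12 libraries shared 1 estimate of spread and 789 with no filter, and 163 to 1424 when a library was left out (163 without cKO replicate 3, 180, 240 and 665 without WT replicates 1, 2 and 3), against 1441 reported. The members called in the metaphysis numbered 0 to 1 with a library left out, 1 with a minimum of 5 RPKM, 1 with globin left out and 2 with the muscle score. Calls for the difference between regions numbered 1 with a pseudocount of 1, 2 with no filter and 0 to 123 with a library left out (123 without diaphysis WT replicate 1), none of them members. With globin left out the members held 2.21% of summed RPKM in diaphysis cKO, 1.99% in diaphysis WT, 2.29% in metaphysis cKO and 2.54% in metaphysis WT libraries. The cause was not tested.

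Named members whose uncalled log2 fold change turned sign were these. In the metaphysis with the muscle score Cox6a1 was at −0.070, Cox6a2 at 0.095, Cox8b at 0.19, Ndufa12 at 0.073 and Ndufs7 at 0.028. In the diaphysis Cox6a2 was at −0.065 and Cox7a1 at −0.032 with that score, Cox6a2 at −0.0018 with median scaling and Uqcr10 at 0.018 with globin left out. With a library left out, 6 of 31 named members turned sign in the metaphysis: Cox6a1 (−0.089 to 0.097), Cox6a2 (−0.94 to 0.052), Cox7b (−0.041 to 0.17), Ndufa12 (−0.29 to 0.11), Ndufa4l2 (−0.079 to 0.69) and Uqcrq (−0.097 to 0.26). In the diaphysis 21 of 30 did: Atp5b (−0.035 to 0.15), Atp5g3 (−0.10 to 0.39), Atp5s (−0.17 to 0.13), Cox6a2 (−0.43 to 0.49), Cox6b1 (−0.043 to 0.29), Cox6b2 (−0.012 to 0.59), Cox7a1 (−0.49 to 0.58), Cox7a2 (−0.089 to 0.31), Cox7b (−0.16 to 0.018), Cox8a (−0.0039 to 0.21), Cox8b (−0.59 to 0.54), Ndufa4 (−0.13 to 0.17), Ndufa4l2 (−0.68 to 0.26), Ndufb3 (−0.071 to 0.33), Sdha (−0.076 to 0.080), Sdhc (−0.013 to 0.42), Uqcr10 (−0.081 to 0.066), Uqcr11 (−0.030 to 0.19), Uqcrb (−0.14 to 0.023), Uqcrfs1 (−0.13 to 0.27) and Uqcrh (−0.082 to 0.33). The cause was not tested.

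Genes near 1 RPKM rest on few reads in the shallower libraries, and with 3 libraries a group the standard errors of the members had a median of 0.13 in the metaphysis and 0.19 in the diaphysis on the log2 scale, so small shifts were not detectable gene by gene.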
